A study of Mus musculus with 6 samples.

Results

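The α-defensins and other granule genes of Paneth cells were followed in RNA from small intestinal crypts of mice with and without CSN8 in the intestinal epithelium. The set holds 34 of the 19505 genes measured. It is made of the 22 genes with an α-defensin symbol (Defa) on the array and 12 other genes. Of these, 7 are listed for proteins secreted by Paneth cells or by the epithelium and 5 for secretory machinery or proteins reported in Paneth cells. Among the 7, Pla2g2a is annotated by RefSeq as a transcribed pseudogene in the C57BL/6J reference. The 12 are called other granule genes in the figures, though not all encode granule proteins. Each gene was found by its platform symbol and is read by 1 probe set, and all 34 stayed above the limit used to set dim probe sets aside. The CSN8ΔIEC mice were taken, from the name of their genotype, as lacking Cops8, the gene of CSN8, in the intestinal epithelium. The CSN8fl/fl mice carry the loxP-flanked gene. The labels name no driver of the recombinase. Both genotypes are on a C57bl/6 background, and each has 3 samples, called biological replicates in the labels, which do not say that each came from its own mouse. Where samples shared a mouse, the p-values would rest on a spread that is in part technical. Replicates 1 and 2 of each genotype are labelled as females aged 16 weeks, and replicate 3 of each as a male aged 10 weeks.

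Paneth cells sit at the base of small intestinal crypts and release granules of antimicrobial proteins into the crypt lumen when they sense bacteria or cholinergic signals. The α-defensins, called cryptdins in mice, are small cationic peptides held by disulfide bonds that disrupt bacterial membranes. In mice they are made as inactive precursors that the metalloproteinase MMP7 cuts before release. Wnt signals acting through TCF transcription factors are known to drive Paneth cell maturation and the α-defensin genes in mice. CSN8 belongs to the COP9 signalosome, which takes NEDD8 off cullin-RING ubiquitin ligases and so controls their activity.

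The sex labels did not match the Y-linked genes in any of the 6 libraries. Eif2s3y had log2 signals of 9.87, 9.61 and 2.81 in CSN8ΔIEC replicates 1 to 3, against 9.95, 10.1 and 4.06 in CSN8fl/fl replicates 1 to 3, and Kdm5d and Uty were likewise high in replicates 1 and 2 and low in replicate 3 of both genotypes. The libraries labelled female were thus the ones with high Y-linked signals. The mismatch was alike in both genotypes, so the strata stayed balanced, and they are called by their labelled ages below. Whether the age labels hold was not tested. The medians of the libraries spanned 0.058 on the log2 scale and the arrays correlated at 0.976 to 0.993, with the library of CSN8fl/fl replicate 3 the furthest from the others. Cops8 itself had signals of 7.68, 7.61 and 7.77 in CSN8ΔIEC, against 8.26, 8.22 and 8.10 in CSN8fl/fl. The difference of −0.50 ± 0.11 did not pass the threshold (adjusted p = 0.0865), and the position of its probes relative to the deletion is not given, so this is no full check of the genotype. All 7 defining Paneth cell markers had signals well above the limit for dim probe sets in each library, as the labelled tissue calls for.

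The 34 genes of the set were lower in CSN8ΔIEC crypts almost throughout. Of the 34, 10 fell and 0 rose at an adjusted p under 0.05 over all genes, where 0.702% of all genes fell and 0.374% rose. In 31 of the 34, each of the 3 CSN8ΔIEC libraries lay below each of the 3 CSN8fl/fl libraries, against 11.7% of all genes. The unadjusted p was under 0.05 in 32 of the 34, against 15.0% of all genes. The median log2 difference, CSN8ΔIEC minus CSN8fl/fl, was −1.06 over the 34 genes and −0.01 over all genes. The 34 were chosen with earlier results of these data known, so the values over all genes stand beside them as a description only. In RNA of whole crypts, fewer Paneth cells and less of an RNA in each Paneth cell cannot be told apart.

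**Figure D1:**
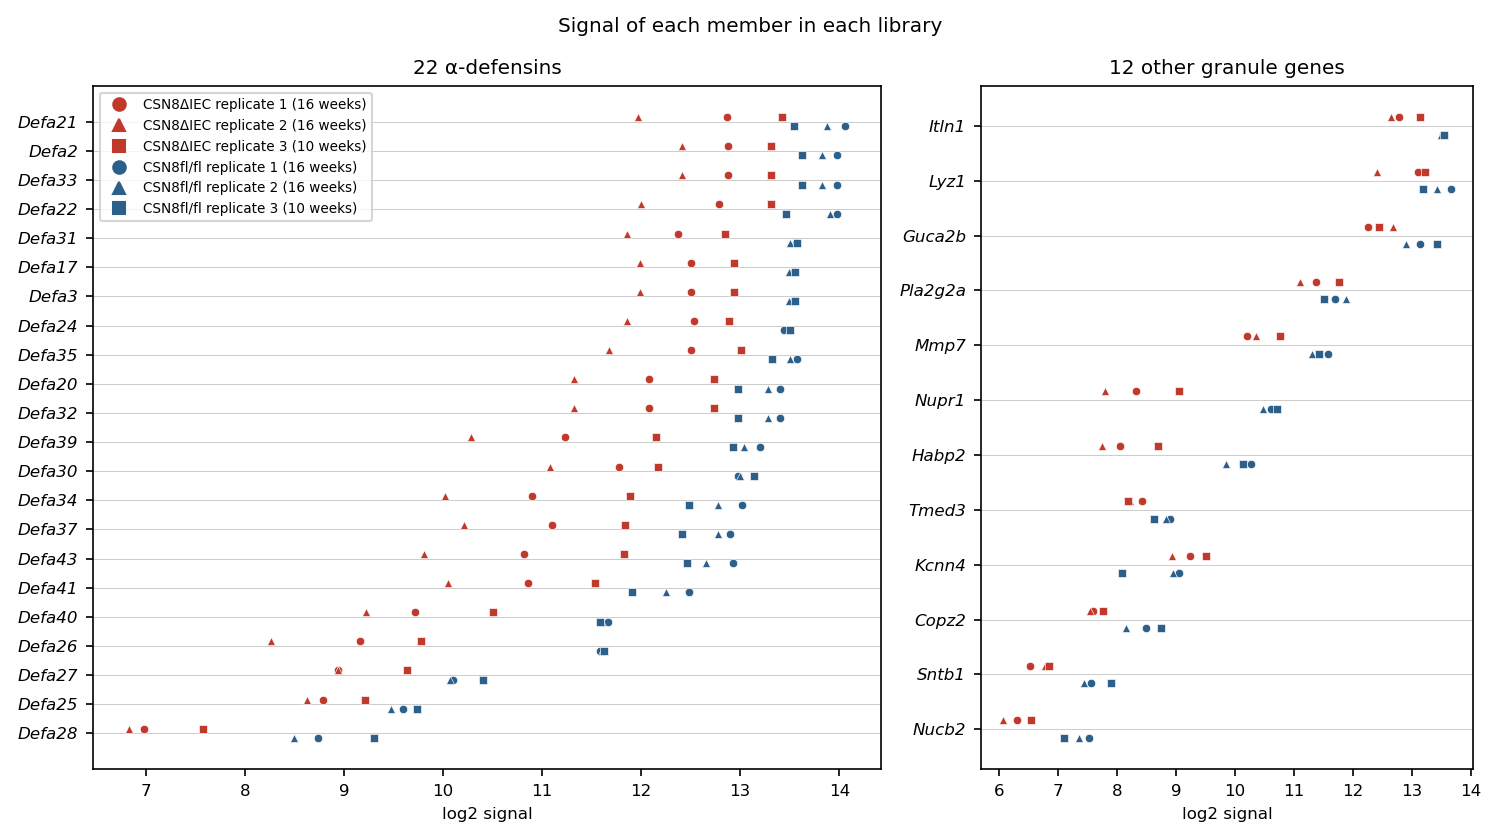
Signal of each gene in each library, on the log2 scale of the deposited values, with CSN8ΔIEC in red above CSN8fl/fl in blue and 1 point for each of the 6 libraries. In all 22 α-defensins the 3 red points lie to the left of the 3 blue ones, and the red triangle, CSN8ΔIEC replicate 2, is the lowest. Probe sets differ in how strongly they bind, so the order of genes on the axis is an order of signals and not of RNA amounts.

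In all 22 α-defensins the highest CSN8ΔIEC signal lay below the lowest CSN8fl/fl signal, with a median difference of −1.17 and a range of −2.54 to −0.73. The 5 that fell were Defa26, Defa40, Defa28, Defa30 and Defa31. The α-defensin genes are related copies, and signal shared between their probes was not separated. Defa20 and Defa32 had the same 6 values, as did Defa3 and Defa17 and also Defa2 and Defa33, which leaves 19 distinct sets of values. Over the 6 libraries, Pearson's r between 2 of the 19 ranged from 0.81 upward, with a median of 0.98. They are therefore not independent measurements of the genotype.

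Defa26 changed the most of the 34 genes. Its signals were 9.16, 8.27 and 9.78 in CSN8ΔIEC replicates 1 to 3, against 11.58, 11.61 and 11.63 in CSN8fl/fl. The CSN8fl/fl libraries were almost equal while the CSN8ΔIEC libraries spread widely below them, and the fall was 5.80-fold (log2 difference −2.54 ± 0.31, limma adjusted p = 0.00996). Defa40 showed the same picture, with 9.72, 9.22 and 10.51 in CSN8ΔIEC and 11.67, 11.61 and 11.58 in CSN8fl/fl, a fall of 3.48-fold (−1.80 ± 0.28, adjusted p = 0.0224). Defa28, the α-defensin with the lowest signal, had 6.98, 6.83 and 7.58 in CSN8ΔIEC and 8.74, 8.50 and 9.30 in CSN8fl/fl. It fell 3.28-fold (−1.71 ± 0.24, adjusted p = 0.0174), and here replicate 3 was the highest library in both genotypes. Defa30 had 11.78, 11.08 and 12.17 in CSN8ΔIEC and 12.98, 13.00 and 13.14 in CSN8fl/fl, a 2.57-fold fall (−1.36 ± 0.24, adjusted p = 0.0375). Defa31, an α-defensin also listed in RefSeq as a cryptdin-related sequence, had 12.37, 11.86 and 12.85 in CSN8ΔIEC and 13.56, 13.50 and 13.57 in CSN8fl/fl. Its fall was 2.27-fold (−1.19 ± 0.22, adjusted p = 0.0465).

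Several α-defensins with larger differences did not pass. Among the 5 with the largest, the SD of the CSN8ΔIEC libraries ran from 0.74 for Defa41 to 1.01 for Defa43. Defa43 had 10.82, 9.81 and 11.83 in CSN8ΔIEC and 12.93, 12.65 and 12.46 in CSN8fl/fl, a difference of −1.86 ± 0.42 (adjusted p = 0.0826). Defa39 differed by −1.84 ± 0.38 (adjusted p = 0.0663), with 11.23, 10.28 and 12.15 in CSN8ΔIEC and 13.20, 13.04 and 12.93 in CSN8fl/fl. Defa34 differed by −1.82 ± 0.39 (adjusted p = 0.0731), Defa37 by −1.64 ± 0.35 (adjusted p = 0.0699) and Defa41 by −1.40 (adjusted p = 0.0926). In each of these 5, CSN8ΔIEC replicate 3 came closest to the CSN8fl/fl libraries, and the groups did not overlap.

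The α-defensins with the highest signals had a smaller median difference than the rest. In CSN8fl/fl crypts 13 of the 22 had a mean above 13, against 0 of the 22 in CSN8ΔIEC crypts, and the highest signal of any gene in any library was 14.1. The 13 had a median difference of −1.08, from −1.84 for Defa39 to −0.94 for Defa2, and 2 of them fell, whereas the other 9 had a median of −1.71 and 3 fell. Across the 19 distinct sets of values, the Spearman correlation of the CSN8fl/fl mean with the difference was 0.35, a description only, since the points share libraries. Array signals flatten toward the upper end, and whether this bears on the smaller differences was not tested. Defa21 had 12.87, 11.97 and 13.42 in CSN8ΔIEC and 14.06, 13.88 and 13.54 in CSN8fl/fl (difference −1.08 ± 0.32, adjusted p = 0.168). The gap between its closest libraries, both replicate 3, was small. Without CSN8ΔIEC replicate 2 the difference of Defa21 was −0.68, and that of Defa35, −1.07 with all libraries (adjusted p = 0.129), was −0.71. Defa22 stood at −1.08 (adjusted p = 0.140) and Defa20, with Defa32, at −1.17 (adjusted p = 0.125). Defa3, with Defa17, differed by −1.05 ± 0.21 (adjusted p = 0.0604) and Defa24, whose CSN8fl/fl libraries were almost equal, by −1.05 ± 0.23 (adjusted p = 0.0783). Defa2, with Defa33, had the smallest difference of the 13, −0.94 ± 0.22 (adjusted p = 0.0882). Among the less bright genes, Defa27 differed by −1.02 ± 0.20 (adjusted p = 0.0570) and Defa25 by −0.73 ± 0.16 (adjusted p = 0.0840).

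**Figure D2:**
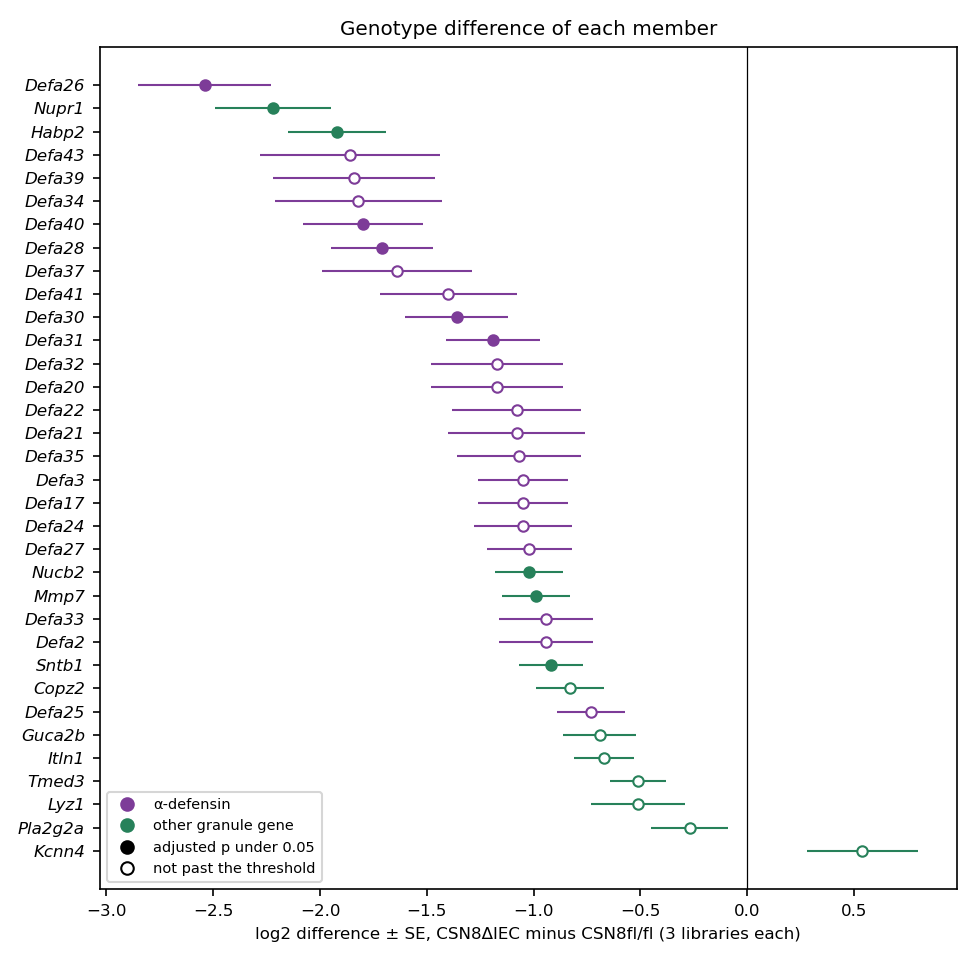
Log2 difference, CSN8ΔIEC minus CSN8fl/fl, of each gene with its standard error from limma (3 libraries a genotype), with filled points for the 10 genes past the threshold. The differences run from −2.54 for Defa26 to 0.54 for Kcnn4, the one gene to the right of 0.

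The regions at the start sites are shown because the α-defensins moved together and TCF factors are known to act on them. RefSeq promoter windows of GRCm38.p6, 300 bases from 250 before to 50 after the annotated start, were matched by symbol to 12 of the 22 α-defensins and to 10 of the other 12 genes. The motif of TCF factors, CTTTGAT, was searched on both strands, as was the TATA motif TATAAA. The stretches below run 5′ to 3′ on the strand of the gene. For 5 α-defensins they cover the 170 bases before the start, on mouse chromosome 8 at chr8:21025375-21025544 (Defa21), chr8:21191403-21191572 (Defa31), chr8:21134480-21134649 (Defa30) and chr8:21582857-21583026 (Defa28) on the plus strand, and at chr8:21594466-21594635 (Defa43) on the minus strand. For Mmp7, which has 2 windows, the 30 bases around the match are given, at chr9:7692081-7692110 on the plus strand. This match begins at base 5 after the start of the first window and at base −247, before the start, of the second. The matches of the α-defensins lie before their annotated starts. These starts do not fall at the same place in all copies. In Defa28, Defa43 and Defa41 the bases after the start open with atgaag, which in Defa21 comes further downstream. Equal distances from the start therefore need not mark the same region in each copy. Capitals mark ATCAAAG, which is CTTTGAT read on the opposite strand.
Defa21: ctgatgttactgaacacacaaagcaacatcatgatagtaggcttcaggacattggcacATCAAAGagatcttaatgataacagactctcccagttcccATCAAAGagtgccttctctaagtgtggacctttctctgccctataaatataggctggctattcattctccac
Defa31: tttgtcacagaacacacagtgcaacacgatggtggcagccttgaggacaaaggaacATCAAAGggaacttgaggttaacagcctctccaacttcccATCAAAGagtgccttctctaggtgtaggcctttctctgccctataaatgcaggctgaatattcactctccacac
Defa30: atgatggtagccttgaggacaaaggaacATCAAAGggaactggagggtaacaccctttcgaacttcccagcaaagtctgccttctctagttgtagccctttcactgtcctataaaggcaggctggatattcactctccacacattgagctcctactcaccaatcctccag
Defa28: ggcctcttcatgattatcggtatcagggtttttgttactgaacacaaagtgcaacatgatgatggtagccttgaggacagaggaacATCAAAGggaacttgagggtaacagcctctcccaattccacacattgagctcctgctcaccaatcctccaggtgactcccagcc
Defa43: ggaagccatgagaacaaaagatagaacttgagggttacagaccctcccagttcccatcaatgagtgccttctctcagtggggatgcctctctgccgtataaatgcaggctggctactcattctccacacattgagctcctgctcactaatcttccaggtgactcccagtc
Mmp7: cctgtcaggaaacATCAAAGtagctctgag

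Of the 12 α-defensin windows, 11 held CTTTGAT, all but that of Defa43, against 3.73% of all 32851 windows. The windows of Defa21, Defa22, Defa2, Defa20, Defa32, Defa31, Defa35 and Defa41 held it at 2 places 40 bases apart, where 0.1% of all windows hold it more than once. All 19 matches lay on the strand opposite to the gene. TATAAA stood in 11 of the 12, all but that of Defa28, against 13.6% of all windows, and in the 8 windows with 2 TCF matches it began 41 bases after the start of the second one. Defa43, without a TCF match in its window, had a difference of −1.86. With 1 match, Defa30, Defa37 and Defa28 had −1.36, −1.64 and −1.71. The 8 genes with 2 matches had differences from −1.40 for Defa41 to −0.94 for Defa2. The α-defensins without a window, from −2.54 for Defa26 to −0.73 for Defa25, are absent from this reading. Of the 10 other genes with a window, only Mmp7 held CTTTGAT, as 1 match that lies in both of its windows. The windows are themselves related copies: over the 66 pairs the identity ran from 64.7% (Defa41 and Defa28) to 100%, with a median of 82.7%, so the matches are not independent. Defa35 and Defa37, with 98% identity, had differences of −1.07 and −1.64. Outside the 34 genes, 0.518% of 579 genes with the motif fell and 0% rose, against 0.583% and 0.398% of 15090 genes without it. A match describes letters in the window and is no evidence that a factor binds there. Whether the motif bears on any of these differences was not tested.

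**Figure D3:**
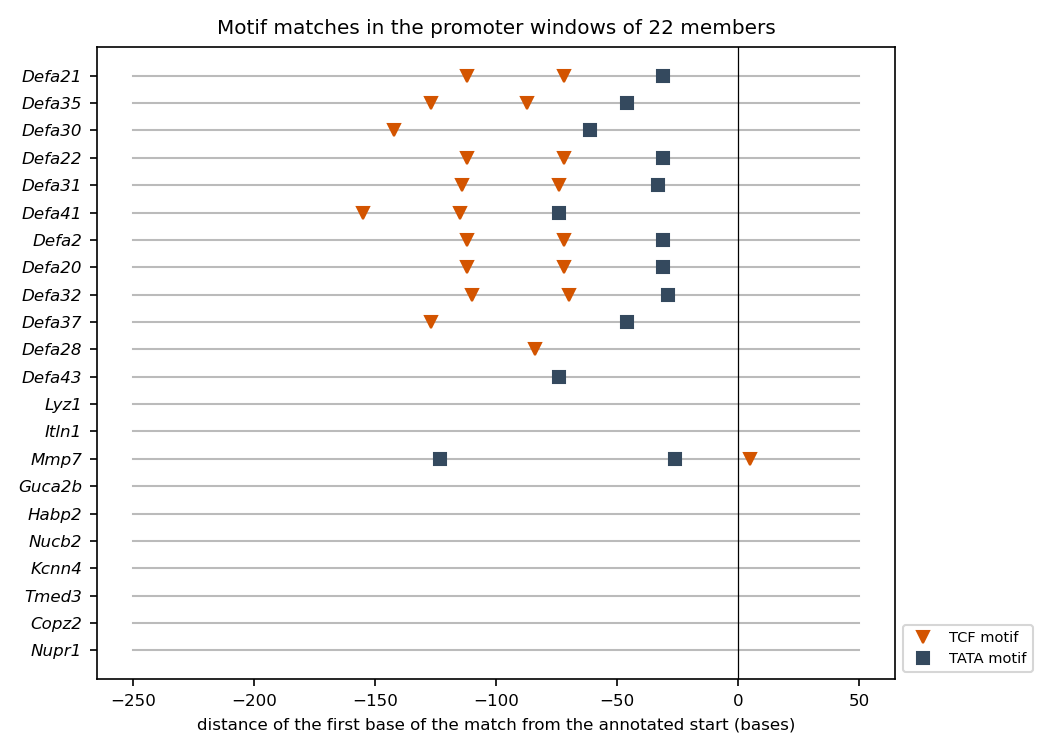
Places of the TCF motif (triangles) and the TATA motif (squares) in the 22 windows found, as the distance in bases of the first base of a match from the annotated start. The annotated start does not fall at the same place in all copies. In 8 α-defensins a pair of triangles 40 bases apart stands before the square, and most other windows hold neither motif.

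The size of the α-defensin difference varied among the CSN8ΔIEC libraries in the same order for each gene. Replicate 2 was the lowest and replicate 3 the highest of the 3 CSN8ΔIEC libraries in 22 of 22 α-defensins. The median over the 22 genes of the signal minus the CSN8fl/fl mean was −1.16, −1.88 and −0.59 in CSN8ΔIEC replicates 1 to 3, against 0.12, 0.01 and −0.14 in CSN8fl/fl replicates 1 to 3. All 3 CSN8ΔIEC libraries were low, replicate 2 most of all. Over all 34 genes, replicate 2 was the lowest CSN8ΔIEC library in 30 and replicate 3 the highest in 32.

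Since replicate 3 of each genotype is labelled with the younger age and the other sex, the genotype difference was read in each stratum. At 16 weeks, both CSN8ΔIEC libraries lay below both CSN8fl/fl libraries in 22 of 22 α-defensins and in 33 of the 34 genes, against 22.5% of all genes. In the single 10-week pair, CSN8ΔIEC was below CSN8fl/fl in 22 of 22 and in 31 of the 34, against 51.2% of all genes. The median α-defensin difference was −0.60 in the 10-week pair and −1.56 at 16 weeks, and it was smaller in size at 10 weeks in 21 of the 22, the exception being Defa28 (−1.72 at 10 weeks and −1.71 at 16 weeks). Defa34 and Defa43 had the widest gaps, with −0.59 at 10 weeks and −2.44 at 16 weeks for Defa34, and −0.63 at 10 weeks and −2.48 at 16 weeks for Defa43. The interaction of genotype with labelled age and sex passed the threshold in none of the 34 genes and in 0.0% of all genes with limma. At an unadjusted p under 0.05 it held 16 of the 34, of which 13 were α-defensins, against 10.1% of all genes. The smallest adjusted p was 0.421. The 10-week stratum holds 1 library a genotype, so the smaller difference there and the values of those 2 libraries cannot be told apart.

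**Figure D4:**
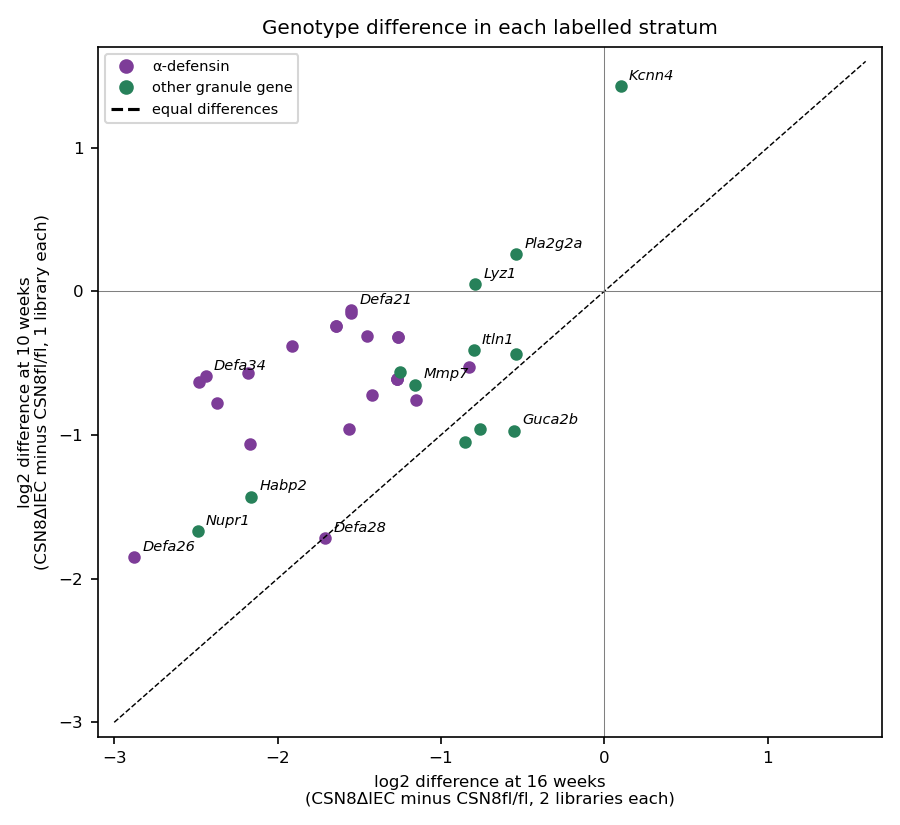
Log2 difference, CSN8ΔIEC minus CSN8fl/fl, in the 10-week pair (vertical) against that in the 16-week libraries (horizontal), with 1 point a gene and the dashed line where both are equal. Of the 22 α-defensins, 21 lie above the line, Defa28 lies on it, and Lyz1, Pla2g2a and Kcnn4 are above 0 on the vertical axis.

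A fit of the 4 libraries labelled 16 weeks alone, chosen after seeing the data, found 13 of the 34 genes lower, against 0.39% of all genes. They were Defa31, Defa40, Defa27, Defa37, Defa28, Defa26, Defa34, Defa43, Defa39, Mmp7, Habp2, Nucb2 and Nupr1. Labelled age and sex by themselves, with genotype in the model, passed for none of the 34 genes by limma (smallest adjusted p = 0.778), against 0.0154% of all genes, and 4 of the 34 had an unadjusted p under 0.05, against 6.16% of all genes. The α-defensin differences, 10 weeks minus 16 weeks, ran from 0.19 for Defa2 to 0.67 for Defa28. This fit takes the shift as equal in both genotypes, which the libraries did not show. The 10-week library was the highest of the CSN8ΔIEC libraries in all 22 α-defensins. Among the CSN8fl/fl libraries it was the lowest in 13 and the highest in 9.

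The calls rested on few libraries. Without CSN8ΔIEC replicate 1, 0 of the 10 passed in limma, with adjusted p-values of 0.0514 to 0.164, and 0.128% of all genes fell. Without CSN8ΔIEC replicate 2, 5 of the 10 passed, while 0.395% of all genes fell. Without CSN8ΔIEC replicate 3, 9 of the 10 passed and 20 of the 34 genes in all fell, among them 16 α-defensins, with 0.395% of all genes again. Leaving out CSN8fl/fl replicate 1, 2 or 3 left 4, 4 and 5 of the 10, with 0.718%, 0.333% and 0.528% of all genes that fell. Defa26, Habp2 and Nupr1 passed in each of these 6 fits but the one without CSN8ΔIEC replicate 1. The differences of the 10 genes stayed within 1.5 times their values in each of these fits.

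Among the genes listed for secreted proteins other than α-defensins, 3 of 7 fell, with a median of −0.69. Mmp7, the protease that activates α-defensin precursors in mice, had 10.20, 10.36 and 10.77 in CSN8ΔIEC replicates 1 to 3, against 11.57, 11.30 and 11.42 in CSN8fl/fl. It fell 1.98-fold (−0.99 ± 0.16, adjusted p = 0.0294), and its groups did not overlap. Habp2, a secreted serine protease that binds hyaluronan, had 8.05, 7.74 and 8.70 in CSN8ΔIEC and 10.27, 9.85 and 10.13 in CSN8fl/fl. The gap between the groups was wide, and the fall was 3.78-fold (−1.92 ± 0.23, adjusted p = 0.00996). Nucb2, a calcium-binding protein that is also the precursor of nesfatin, had 6.31, 6.07 and 6.55 in CSN8ΔIEC and 7.52, 7.36 and 7.11 in CSN8fl/fl, a 2.03-fold fall (−1.02 ± 0.16, adjusted p = 0.0259).

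The antimicrobial genes Lyz1, Pla2g2a and Itln1 differed less. Itln1, a lectin that binds microbial sugars, had 12.78, 12.65 and 13.13 in CSN8ΔIEC and 13.53, 13.50 and 13.54 in CSN8fl/fl. The groups did not overlap, and the difference of −0.67 ± 0.14 missed the threshold (adjusted p = 0.0703). Lyz1, the Paneth cell lysozyme, had 13.10, 12.41 and 13.23 in CSN8ΔIEC and 13.66, 13.43 and 13.18 in CSN8fl/fl. The replicate 3 library of CSN8ΔIEC lay above that of CSN8fl/fl, so the groups overlapped, and the difference was −0.51 ± 0.22 (adjusted p = 0.324). Without CSN8ΔIEC replicate 2 it was −0.26. Pla2g2a, a secreted phospholipase that RefSeq annotates as a transcribed pseudogene in the C57BL/6J reference, had 11.37, 11.11 and 11.77 in CSN8ΔIEC and 11.69, 11.88 and 11.51 in CSN8fl/fl (difference −0.27 ± 0.18, adjusted p = 0.512). Its groups overlapped as well, and leaving out CSN8ΔIEC replicate 2 gave −0.12, CSN8ΔIEC replicate 3 gave −0.45 and CSN8fl/fl replicate 2 gave −0.18. Guca2b, uroguanylin, a ligand of the guanylate cyclase receptor that sets salt and water secretion, had 12.26, 12.68 and 12.45 in CSN8ΔIEC and 13.14, 12.90 and 13.42 in CSN8fl/fl. Its difference of −0.69 ± 0.17 was not past the threshold (adjusted p = 0.104), and it was one of the few genes with a larger difference in the 10-week pair, −0.97, than at 16 weeks, −0.55.

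Among the 5 genes of secretory machinery and other functions, 2 fell, and the median was −0.83. Nupr1, a small nuclear protein induced by cell stress, had 8.32, 7.79 and 9.05 in CSN8ΔIEC and 10.61, 10.48 and 10.72 in CSN8fl/fl. It fell 4.65-fold (−2.22 ± 0.27, adjusted p = 0.00996), the second largest difference of the 34. Sntb1, a syntrophin that links proteins to the dystrophin complex at the membrane, had 6.52, 6.78 and 6.85 in CSN8ΔIEC and 7.56, 7.45 and 7.90 in CSN8fl/fl, a 1.89-fold fall (−0.92 ± 0.15, adjusted p = 0.0311). It did not pass when any 1 of the 6 libraries was left out, with adjusted p-values of 0.0551 to 0.139. Copz2, a subunit of the coatomer coat of Golgi vesicles, differed by −0.83 ± 0.16 (adjusted p = 0.0543), with 7.60, 7.54 and 7.77 in CSN8ΔIEC and 8.50, 8.16 and 8.74 in CSN8fl/fl. Tmed3, a p24 protein that carries cargo out of the endoplasmic reticulum, differed by −0.51 ± 0.13 (adjusted p = 0.118), with 8.43, 8.23 and 8.19 in CSN8ΔIEC and 8.90, 8.83 and 8.63 in CSN8fl/fl.

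Kcnn4, the calcium-activated potassium channel known in mice to take part in the secretion of α-defensins by Paneth cells, was the one gene of the 34 with a difference above 0. Its signals were 9.24, 8.94 and 9.51 in CSN8ΔIEC and 9.05, 8.95 and 8.08 in CSN8fl/fl. The groups overlapped and the difference of 0.54 ± 0.26 did not pass (adjusted p = 0.369). The low value of CSN8fl/fl replicate 3 made most of it, and without that library it was 0.24.

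Gene lists related to the granules were read beside the members, and most of them had a median near 0. Over all genes, 0.702% fell, 0.374% rose and 15.0% had an unadjusted p under 0.05 in limma. Of 10 genes for Paneth cell formation, 1 fell and 0 rose, 4 had an unadjusted p under 0.05, and the median was −0.02. The one was Bhlha15, which encodes the transcription factor MIST1 of secretory cells, with 6.47, 5.57 and 6.46 in CSN8ΔIEC and 7.95, 7.63 and 7.61 in CSN8fl/fl. It fell 2.97-fold (−1.57 ± 0.24, adjusted p = 0.0223), but not without any 1 CSN8fl/fl library or CSN8ΔIEC replicate 1 (adjusted p up to 0.0852 over the alternatives). Spdef, a transcription factor of goblet and Paneth cells, differed by −0.40 (adjusted p = 0.197) and Fgfr3, a growth factor receptor, by −0.40 (adjusted p = 0.208). Of 15 genes for granule assembly, sorting and release none passed in limma, 5 had an unadjusted p under 0.05, and the median was 0.01. Slc30a2, a zinc transporter, had the smallest p, with a difference of −0.56 (adjusted p = 0.207) that was −0.36 without CSN8fl/fl replicate 3. Irgm1, an interferon-induced GTPase, differed by 0.47 (adjusted p = 0.220).

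In each of 3 further lists, of families and partners of the members, at most 1 gene passed. Beside them stand the same shares over all genes, 0.702% that fell and 15.0% with an unadjusted p under 0.05. Of 8 p24 cargo proteins besides Tmed3, 1 fell and had an unadjusted p under 0.05, Tmed6, with 5.52, 4.51 and 6.48 in CSN8ΔIEC and 7.82, 7.66 and 7.69 in CSN8fl/fl. Its fall was 4.65-fold (−2.22 ± 0.40, adjusted p = 0.0401), and the call was lost when any 1 CSN8fl/fl library or CSN8ΔIEC replicate 1 was left out, and in the fit with a variance trend (adjusted p up to 0.146). Of 8 coatomer subunits besides Copz2 none passed in limma, 1 had an unadjusted p under 0.05, and the median was −0.12, with Copg1 at −0.27 and Copz1 at −0.25. Of 17 genes related to the members, by family or as ligand and receptor, 1 fell, 6 had an unadjusted p under 0.05, and the median was −0.01. The one that fell was Pla2g2f, a secreted phospholipase related to Pla2g2a, with 6.80, 6.55 and 7.40 in CSN8ΔIEC and 8.44, 8.14 and 8.42 in CSN8fl/fl. It fell 2.67-fold (−1.42 ± 0.21, adjusted p = 0.0194), but not without CSN8fl/fl replicate 3 or CSN8ΔIEC replicate 1 or 2 (adjusted p up to 0.100). Pla2g5, another secreted phospholipase, differed by 0.81 (adjusted p = 0.0663). The genes Ripk2, Tmed1, Itlnb and Mmp15 were not analysed here.

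**Figure D5:**
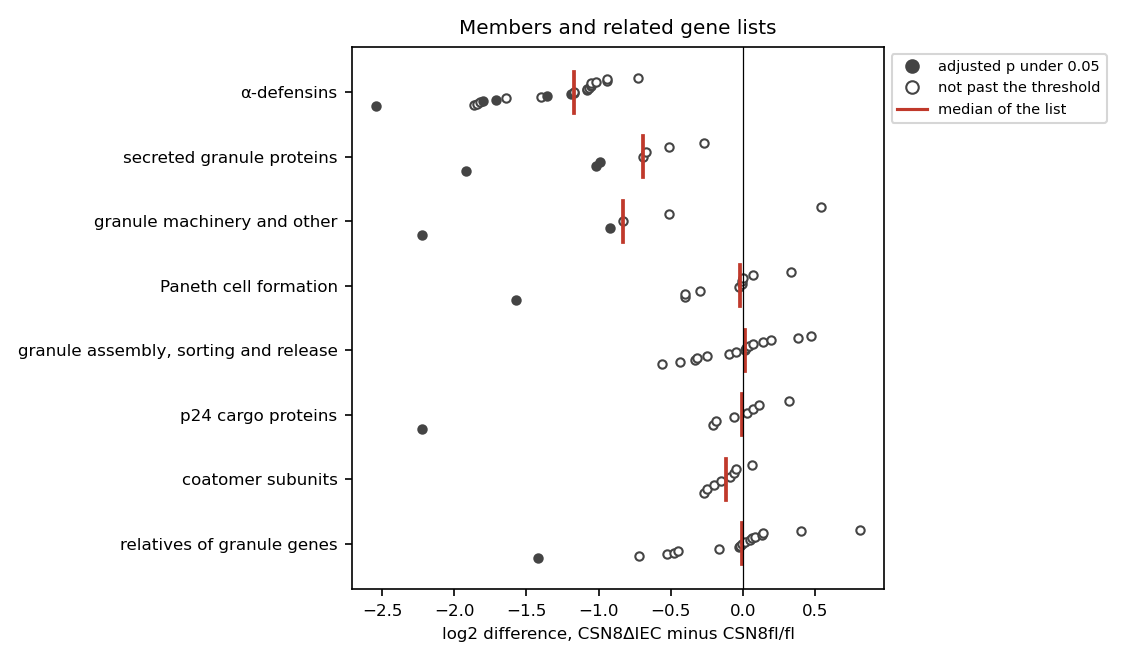
Log2 difference, CSN8ΔIEC minus CSN8fl/fl, of each gene in the 3 groups of members and in 5 related lists, with filled points for genes past the threshold and a red bar at each list's median. The medians of the members lie at −1.17, −0.69 and −0.83, and those of the related lists between −0.12 and 0.01.

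Markers of other cells of the crypt moved with the genotype in part. As the log2 of their summed signals, Paneth markers, 5 of which are members, were at 14.5 to 15.28 in CSN8ΔIEC and 15.84 to 15.89 in CSN8fl/fl, and 3 of 7 fell (Mmp7, Ang4 and Mptx2). Ang4 passed without any 1 library, and Mptx2 did not without CSN8fl/fl replicate 2 or 3 or CSN8ΔIEC replicate 1. Goblet cell markers were at 15.33 to 15.45 in CSN8ΔIEC and 15.65 to 15.86 in CSN8fl/fl, with 2 of 6 that fell, Tff3 and Clca1. The call of Tff3 was lost without any 1 library, and that of Clca1 without any 1 but CSN8fl/fl replicate 1, with adjusted p-values up to 0.212 and 0.173 over the alternatives. Tuft cell markers were at 8.57 to 8.73 in CSN8ΔIEC and 10.37 to 12.28 in CSN8fl/fl, and 4 of 6 fell, Dclk1, Rgs13, Siglecf and Pou2f3, all of which lost the call without CSN8ΔIEC replicate 1 (adjusted p up to 0.157 over the alternatives). Siglecf and Pou2f3 also lost it without CSN8fl/fl replicate 2 or CSN8ΔIEC replicate 2 or 3, and Rgs13 without CSN8ΔIEC replicate 2. In the fit with a variance trend, Rgs13 and Siglecf did not pass. The part of the tuft cell markers in the granule gene results was not tested. Enteroendocrine markers were at 11.09 to 11.38 in CSN8ΔIEC and 11.1 to 11.18 in CSN8fl/fl, with Tac1 and Cck that rose and Sst that fell of 5. Tac1 passed without any 1 library, Cck passed when CSN8ΔIEC replicate 2 was left out but not when any other 1 was (adjusted p up to 0.229), and leaving out CSN8ΔIEC replicate 1 or 3 ended the call of Sst (highest adjusted p 0.0995). Stem cell markers were at 12.16 to 12.45 in CSN8ΔIEC and 11.45 to 12.17 in CSN8fl/fl, and enterocyte markers at 15.15 to 15.55 in CSN8ΔIEC and 15.4 to 15.75 in CSN8fl/fl, and 0 of 5 and 0 of 6 passed. Lists of intraepithelial lymphocytes (0 of 4), B and plasma cells (0 of 3), myeloid cells (0 of 4, with S100a8 and S100a9 dim) and pancreatic acinar cells (0 of 4, with Ctrb1 dim) had no gene past the threshold. In the 16-week libraries alone, however, the B cell genes Cd79a (−1.28, adjusted p = 0.0376) and Ms4a1 (−1.11, adjusted p = 0.0488) fell, as they did without CSN8fl/fl replicate 3, and their part in the granule gene results there was not tested. Of 5 stromal markers Acta2 rose, a call lost without any 1 library (adjusted p up to 0.204), and Des was dim. Genes of the proximal small intestine were at 12.52 to 13.17 in CSN8ΔIEC and 12.96 to 13.46 in CSN8fl/fl (1 of 5, Cybrd1, fell, but not without CSN8ΔIEC replicate 1 or 2), and those of the distal part at 13.57 to 13.77 and 13.75 to 14.05 in the same order (0 of 4).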

How the data were processed

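The authors deposited log2 probe set signals for which the submitters' processing notes name RMA and Partek 6.6. Neither their settings nor a genome build is given there. Of 22206 probe sets, 19572 had 1 gene symbol, 0 had several and 2634 are unnamed here. The probe set with the highest mean stood for each of the 55 genes with more than 1, which left 19505 genes. CSN8ΔIEC and CSN8fl/fl (3 arrays each) were compared with limma 3.58.1 in R 4.3.3 (lmFit, eBayes), two-sided, with Benjamini-Hochberg adjustment over all genes and a threshold of 0.05. Group values are log2 signals and differences are given ± SE. The procedure was tested on simulated data. Probe sets under 5.01 in more than 3 arrays were called dim. The number of arrays limits the precision. By rule, named genes were drawn from the 34 members, Cops8, genes of related lists past the threshold or among the 2 smallest p, and up to 3 called or dim genes of a marker list. Further genes, the Y-linked ones among them, were chosen after their values were seen. The members and lists were chosen with earlier results of these data known. RefSeq gave promoter windows, aligned with free end gaps.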

Additional observations from a re-analysis of the deposited data

Results flagged for a closer look

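Lyz1, the Paneth cell lysozyme, is set apart because both 16-week CSN8ΔIEC libraries were lower than both 16-week CSN8fl/fl libraries while the 10-week pair went the other way. Its difference was 0.05 in the 10-week pair and −0.79 at 16 weeks, and the interaction of 0.84 did not pass (adjusted p = 0.536). Pla2g2a showed the same pattern, with a difference of 0.26 in the 10-week pair and −0.54 at 16 weeks and an interaction of 0.80 that did not pass (adjusted p = 0.436).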

How the results depend on the processing

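Over 13 alternatives, the 34 genes gave 442 values: 372 kept their direction and call, 34 gained a call, 36 lost one and 0 reversed. A replicate block, an age and sex covariate, the dim filter, a variance trend and averaged probe sets leave these differences unchanged. None could reverse there, and only the 10 genes called could lose a call. The count of 10 genes was 16 with a variance trend and robust eBayes, and ran from 0 to 20 when 1 library was left out. The count of 5 α-defensins was 9 with labelled age and sex as a covariate, 8 with dim probe sets filtered out, 9 with trend and robust eBayes and 9 in the 16-week libraries alone, and ran from 0 to 16 when 1 library was left out. The count over all genes moved as well. It was 210 in the main fit, 225 with the covariate, 285 of 14763 with the dim filter and 298 with trend and robust eBayes. In the 16-week libraries alone it was 97, and it ran from 41 to 228 when 1 library was left out. The median α-defensin difference of −1.17 ran from −1.56, in the 16-week libraries alone, to −0.85, without CSN8ΔIEC replicate 2, and that of the other 12 genes, −0.76, from −0.90 to −0.68. Subtracting array medians left both counts as they were. So did averaging probe sets, but each of the 34 genes is read by 1 probe set, so its values could not change. Deviations of same-numbered libraries correlated at 0.117, −0.024 and 0.038, and those of differently numbered ones at −0.149 to 0.096. The 2 replicate 3 libraries share labelled age and sex and yet reached only 0.038. These values therefore cannot decide whether the replicate numbers pair the samples. With the replicate number as a block, 11 of the 34 genes and 6 of the α-defensins fell, and 202 of all genes were called. Defa27 and Copz2 gained a call and Nucb2 lost it. The interaction was fitted in 1 way. Signals near the top of the range, shared signal among α-defensins and 3 arrays a genotype limit what these values can show.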

Other observations

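The α-defensins spread more among the CSN8ΔIEC libraries than among the CSN8fl/fl libraries. The SD was larger in CSN8ΔIEC for 21 of 22, with a median of 0.66 in CSN8ΔIEC and 0.18 in CSN8fl/fl. Over all genes it was larger in CSN8ΔIEC for 37.7%, with medians of 0.13 in CSN8ΔIEC and 0.18 in CSN8fl/fl. Defa28 was the exception, with 0.39 in CSN8ΔIEC and 0.41 in CSN8fl/fl. Of the 12 other members, 7 had the larger SD in CSN8ΔIEC. The spread was not tested, and the α-defensins move together across libraries.

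No test passed for the following relatives of the products. Lyz2, a second lysozyme gene, had a difference of −0.72 (adjusted p = 0.226), Guca2a, the guanylin gene, −0.45 (adjusted p = 0.147), and Gucy2c, their receptor, 0.13 (adjusted p = 0.637).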
